A study of Mus musculus with 4 samples.

Results

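The cytokine, chemokine and tumour necrosis factor (TNF) families with their receptors were described in Long RNA-seq of cultured mouse female germline stem cells (FGSCs). Members were the protein-coding genes whose symbols begin with Il, Ccl, Cxcl, Ccr, Cxcr or Csf and a number, or with Tnfrsf or Tnfsf, with 1 interleukin receptor gene set aside. This rule took 182 of the 53465 genes in the table, under 174 symbols, since some genes have extra copies on unplaced scaffolds. They comprised 95 ligands, 84 receptors and 3 genes of other kinds, *Il1rn* (a receptor antagonist), *Il18bp* (a binding protein) and *Il4i1* (a secreted enzyme). The rule uses symbols and not levels.

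FGSCs of ovarian origin carried a lentiviral control shRNA (shNC) or a lentiviral shRNA against *Nat10* (shNAT10), and the study selected infected cells with puromycin or blasticidin. NAT10 is the enzyme that places N4-acetylcytidine (ac4C) on RNA. Each group had 2 libraries, which the study calls biological replicates. The sources used here do not say how the cultures were separated, so p-values measure the spread between these libraries only. The labels give no strain, age or number of animals for the cells, and no time between infection and RNA extraction. The comparison of shNAT10 with shNC asks how gene expression differed when *Nat10* was knocked down.

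Cytokines are secreted or membrane-bound proteins through which cells signal to each other. Interleukins and colony-stimulating factors (CSFs) mostly act through receptor chains coupled to JAK kinases and STAT factors, with the interleukin 1 and 17 families using MyD88 or related adaptors instead. Chemokines act through G protein-coupled receptors that guide cell migration, and TNF family ligands act through receptors that recruit TRAF or death domain adaptors. Most members are studied as products of leukocytes, fibroblasts and epithelial cells. In the ovary, chemokines and interleukins are known from the stroma, from resident leukocytes and from ovulation.

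*Nat10* was at 7.79 and 5.42 FPKM (fragments per kilobase of exon, scaled by library depth) in shNC and at 2.95 and 3.04 FPKM in shNAT10. The groups did not overlap, and the log2 fold change was -1.09 (SE 0.21, adjusted p = 0.123 by limma). This call was lost without shNAT10 replicate 1, at -1.07, or without shNAT10 replicate 2, at -1.11. Each library held between 11057933 and 14902426 recovered fragments. The deposited FPKM are scaled by other totals, 11745613 to 15330622 fragments, and by these 3 fragments, taken as the floor, equal 0.196 to 0.255 FPKM for a gene of 1 kb. Floors cover counting error only, since PCR copies are not told apart.

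The labelled cell type was checked against markers. Of 8 germline markers, 1 had a mean of at least 1 FPKM: *Ifitm3*, which many somatic cells also express, at 9.29 to 33.6 FPKM. *Dazl*, *Pou5f1*, *Dppa3* and *Tfap2c* were at 0 in each library, and *Ddx4* was at 0.0529 FPKM in 1 library and 0 in the other three. All 4 pan-leukocyte markers reached 1 FPKM, and their summed level was 168 to 194 FPKM across libraries. Of 10 mast cell markers 4 reached 1 FPKM, with sums of 313 to 323 FPKM, mainly from *Cpa3* at 245 to 272 FPKM, while *Fcer1a* and *Tpsb2* were at 0. Of 5 macrophage markers 4 reached 1 FPKM, with sums of 51.0 and 54.2 FPKM in shNC, against 41.3 and 45.3 in shNAT10. Of 6 fibroblast markers 3 reached 1 FPKM, with sums of 51.9 and 45.0 FPKM in shNC, against 60.8 and 51.6 in shNAT10. No marker of T cells (0 of 4), B cells (0 of 3), neutrophils (0 of 4) or granulosa cells (0 of 4) reached a mean of 1 FPKM. The neutrophil marker *S100a8* was at 0.368 and 0.243 FPKM in shNC, against 1.03 and 0.846 in shNAT10. Some of these markers moved with the groups. Called lower in shNAT10 were *Kit*, *Gata2* (41.5 and 38.6 FPKM in shNC, 31.9 and 31.6 in shNAT10), the macrophage marker *Adgre1* (44.7 and 47.8, then 33.2 and 38.5 FPKM) and the leukocyte marker *Laptm5*, and called higher were the mast cell marker *Ms4a2* (0.938 and 0.539, then 3.77 and 3.13 FPKM), *S100a8* and the fibroblast markers *Pdgfra* (6.74 and 5.08, then 10.8 and 10.2 FPKM) and *Col3a1*. The defining germline markers were thus at or near 0 in these libraries. The study characterised its FGSCs by other measures, RT-PCR for *Ddx4*, *Oct4*, *Blimp1* and *Fragilis* and immunofluorescence for the OCT4 and DDX4 proteins. The part of other cell types in the results below was not tested. In RNA from a whole culture, fewer cells of a type and less RNA per cell cannot be told apart.

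Of the 182 members, 46 were at 0 in each of the 4 libraries and a further 32 had a mean above 0 but under 0.1 FPKM. The 104 members with a mean of at least 0.1 FPKM were compared between groups, 7 of which reached 0.1 FPKM in 1 group only and support no comparison, and 63 had a mean of at least 1 FPKM, which is called expressed here. Expressed members were 28 of 95 ligands (29.5%) and 35 of 84 receptors (41.7%), a difference given without a test because genes are not replicates. These totals count extra copies of some genes, and by symbol there were 89 ligands and 82 receptors. The number at 1 FPKM or more was 60 and 64 in shNC, against 61 and 62 in shNAT10. A level of 5 FPKM was reached by 22 members and a level of 10 FPKM by 11. By at least 3 fragments in every library, 90 members were detected, 38 of them ligands and 49 receptors.

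**Figure D1:**
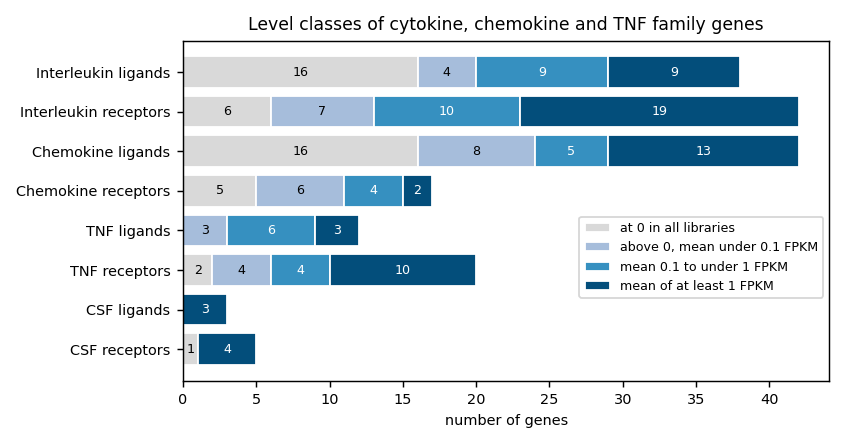
Number of genes (horizontal axis) in each of 4 level classes, by family and role, from the mean FPKM over 4 libraries; the 3 genes of other kinds are left out. Interleukin receptors (19 of 42) and TNF receptors (10 of 20) were expressed more often than chemokine receptors (2 of 17). At 0 were 16 of 38 interleukin ligands and 16 of 42 chemokine ligands. The 42 chemokine ligand genes carry 36 symbols, since extra copies on unplaced scaffolds are counted.

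Families differed in how many members were expressed. Among interleukin genes, 9 of 38 ligands and 19 of 42 receptors were expressed, and among TNF family genes 3 of 12 ligands and 10 of 20 receptors. Chemokines showed the opposite order, with 13 of 42 ligands and 2 of 17 receptors, *Cxcr2* and *Ccr7*. The 42 chemokine ligand genes carry 36 symbols, since extra copies on unplaced scaffolds are counted. All 3 CSF ligands and 4 of 5 CSF receptors were expressed, and *Csf3r*, the receptor for granulocyte CSF, was at 0. Cytokines that lymphocytes make were at mixed levels: *Il4*, *Csf2* and *Il13* had means of 15.9, 2.89 and 2.56 FPKM, *Il2* and *Il17f* held 13 and 10 fragments in all, and *Il3*, *Il5*, *Il9*, *Il17a*, *Il21* and *Il22* were at 0 in each library. Also at 0 were *Ccl22*, *Cxcl13*, *Cxcr3* and *Ccr6*. At 0 fragments a gene of 1 kb can still lie below the floor given above.

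Expression was concentrated in a few genes. *Ccl2*, a chemokine that attracts monocytes, led the ligands with 55.1 and 59.1 FPKM in shNC, against 129 and 119 in shNAT10. *Cxcl1*, a neutrophil chemokine, followed with 27.3 and 28.1 FPKM in shNC, against 32.6 and 33.6 in shNAT10. *Il6*, which drives acute-phase and B cell responses, had a mean of 20.5 FPKM over the 4 libraries, and *Il4*, the cytokine that directs type 2 immunity, had 15.9 FPKM. The other ligands among the highest 10 were *Ccl7* (8.92 FPKM), *Ccl9* (8.26), *Tnfsf8* (7.89), *Il33* (6.82), *Ccl5* (5.77) and *Csf3* (3.95).

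Receptors had a flatter order. *Tnfrsf9* (4-1BB), a costimulatory receptor, was at 76.6 and 106 FPKM in shNC, against 69.7 and 73.9 in shNAT10. *Il18rap*, the accessory chain for interleukin 18, was at 52.9 and 54.9 FPKM in shNC, against 50.8 and 52.1 in shNAT10. *Tnfrsf12a*, the receptor for TWEAK, was at 34.7 and 43.5 FPKM in shNC, against 43.8 and 48.0 in shNAT10. These receptors were not called between groups. *Il4ra*, the chain shared by the interleukin 4 and 13 receptors, ranged from 29.3 to 35.0 FPKM. The next receptors by mean level were *Csf2rb* (19.4 FPKM), *Il9r* (11.2), *Tnfrsf13b* (10.2), *Cxcr2* (7.74), *Il12rb2* (7.54), *Il13ra1* (7.30), *Csf2rb2* (6.58), *Tnfrsf1a* (6.21), *Il2ra* (5.21), *Tnfrsf18* (4.88) and *Il17ra* (4.54). *Csf2rb* and *Csf2rb2* shared near-identical stretches over 63.3% and 65.9% of their longest transcripts, so reads may be split between them. *Il12rb2* shared 40.0% of its exon bases with *Serbp1* on the opposite strand, and *Tnfrsf18* shared 27.2% with *Gm16008*, which makes their levels uncertain.

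**Figure D2:**
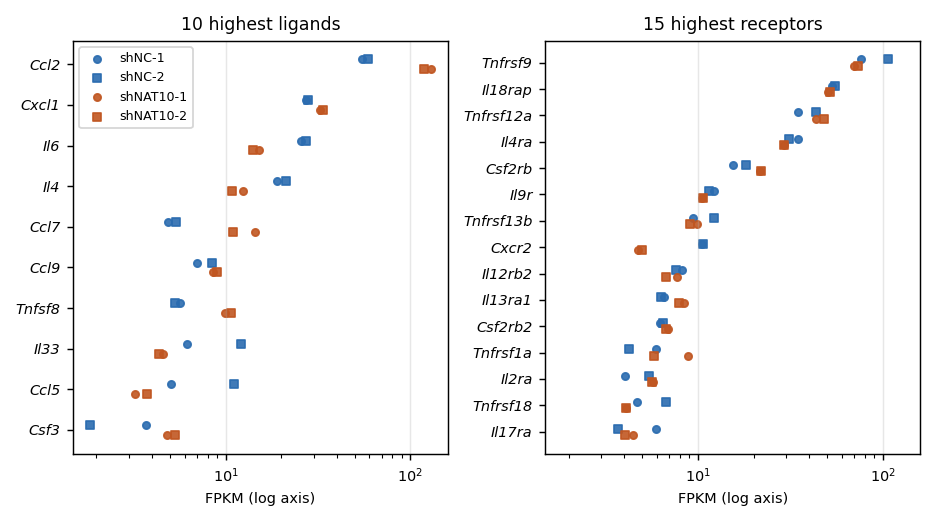
FPKM on a log axis of the 10 ligands (left) and 15 receptors (right) with the highest mean, one point per library, blue for shNC and orange for shNAT10. *Ccl2*, *Ccl7* and *Tnfsf8* lay higher and *Il6*, *Il4* and *Cxcr2* lower in both shNAT10 libraries, while the 4 highest receptors were not called.

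A ligand and its receptor were not always expressed together. Of 52 listed ligand-receptor pairs, 13 had both genes at 1 FPKM or more, 13 the ligand only, 14 the receptor only and 12 neither. Pairs with both were *Il4* with *Il4ra* and *Il2rg*, *Il13* with *Il13ra1*, *Il6* with the signalling chain *Il6st* (2.24 FPKM), *Csf2* with *Csf2ra* and *Csf2rb*, *Csf1* and *Il34* with *Csf1r*, *Il1a* with *Il1r1* and *Il1rap*, *Il18* with *Il18rap*, *Cxcl1* with *Cxcr2*, and *Tnfsf13b* with *Tnfrsf13b*. *Il2rg* shared 30.5% of its exon bases with *Gm20489* on the same strand.

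For some ligands the listed receptor was barely covered. *Ccr2*, the receptor of *Ccl2* and *Ccl7*, was covered by 1 fragment over the 4 libraries. *Il6ra*, the chain that binds interleukin 6, was at a mean of 0.179 FPKM, against 20.5 FPKM for *Il6*. Conversely *Tnfsf9*, the ligand of *Tnfrsf9*, was at 0.944 FPKM and *Tnfsf12*, the ligand of *Tnfrsf12a*, at 0.176 FPKM. *Tnfsf12* shared 48.3% of its exon bases with *Tnfsfm13* on the same strand, which makes its level uncertain. For *Il18*, at 1.65 FPKM, the accessory chain was at 52.7 FPKM and the binding chain *Il18r1* at 0.649 FPKM.

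**Figure D3:**
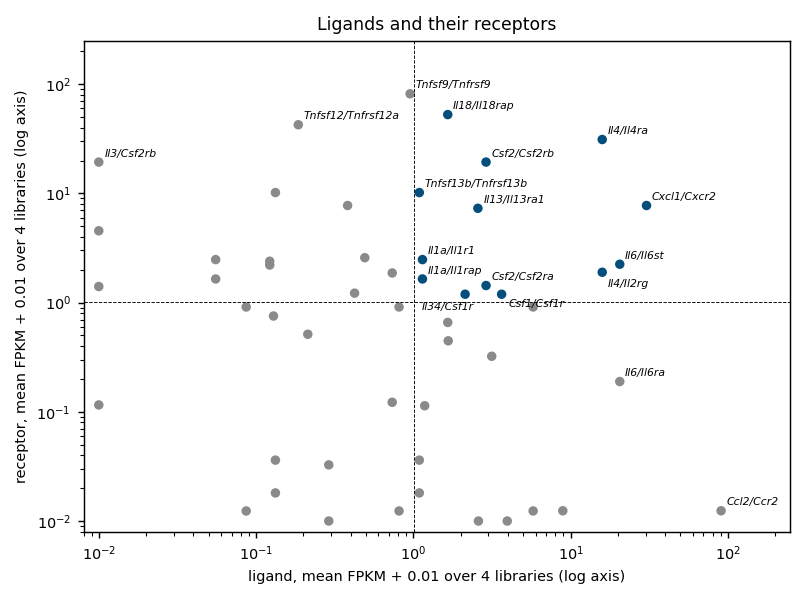
Mean FPKM + 0.01 over 4 libraries of the ligand (horizontal, log axis) and the receptor (vertical, log axis) in 52 listed pairs; dashed lines mark 1 FPKM, and dark points have both genes at or above it (13 pairs). *Ccl2* with *Ccr2* lies at the lower right and *Tnfsf9* with *Tnfrsf9* at the top, just left of the line.

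Expression in shNAT10 was compared with shNC with limma (trend option, two-sided) on log2(FPKM + 0.1) of 20116 genes, and calling a gene required a fold over 1.2 together with p, before adjustment, of 0.05 or less. Fold changes on this scale understate the change of genes with low FPKM. Of the 104 members tested, 26 (25.0%) were called, 13 higher and 13 lower, beside 16.2% of all genes tested and 17.9% of protein-coding genes tested. Of the 63 expressed members, 25 (39.7%) were called, beside 21.7% of protein-coding genes with a mean of at least 1 FPKM. The median log2 fold change was -0.05 over the members and 0.01 over all genes tested.

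Ligands and receptors are set side by side. Of 48 ligands tested, 10 were higher and 7 lower (35.4% called), with a median log2 fold change of 0.05. Of 53 receptors tested, 3 were higher and 6 lower (17.0% called), with a median of -0.13. In all genes tested 8.41% were higher and 7.83% lower, 16.2% in all. The share of called receptors depended on the fit: by limma-voom on recovered fragments, with the same fold and p, 6 receptors were higher and 11 lower (32.1% of 53, beside 19.3% of all genes). By that fit 9 ligands were higher and 7 lower (33.3% of 48). The difference between ligands and receptors was not tested.

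The groups did not overlap for all 26 called members. Non-overlapping groups occurred in 60 of the 104 members (57.7%), beside 48.0% of all genes and 54.6% of protein-coding genes tested. An exact permutation test of 2 libraries against 2 cannot give a p under 0.3333. By limma with Benjamini-Hochberg adjustment over all genes, 2 members, *Ccl2* and *Cxcr2*, had an adjusted p under 0.05, beside 0.437% of all genes. These calls rested on the settings, since no gene had an adjusted p under 0.05 by limma with a pseudocount of 1 or 0.01, without the filter on low values, with the replicate block or in any fit without one library. With a mean of at least 1 FPKM 296 genes had an adjusted p under 0.05 by limma, and at an equal protein-coding FPKM total 136 did, against 88 in the fit reported. By limma-voom on recovered fragments, 18 members had an adjusted p under 0.05, 8 higher and 10 lower, beside 7.70% of genes. The lower ones include *Il2rb*, on 24 fragments, which passed the filter on low values through shNC only and supports nothing.

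**Figure D4:**
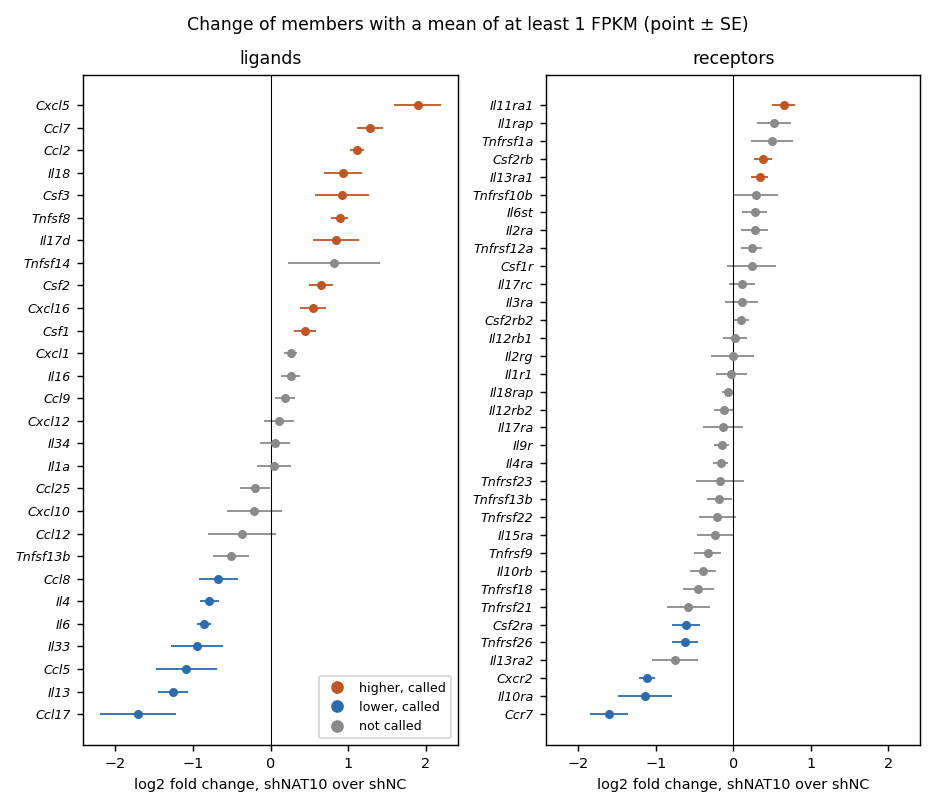
Log2 fold change of shNAT10 over shNC (point, with its standard error as a bar) for the 28 ligands (left) and 35 receptors (right) with a mean of at least 1 FPKM. *Cxcl5*, *Ccl7* and *Ccl2* head the ligands that rose, and *Ccr7*, *Il10ra* and *Cxcr2* are the receptors that fell furthest.

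Of the ligands that rose, *Cxcl5*, *Ccl7* and *Ccl2* had the highest fold changes. *Ccl2* rose 2.17-fold from 55.1 and 59.1 to 129 and 119 FPKM (log2 fold change 1.12, SE 0.09, adjusted p = 0.0452 by limma). Both shNAT10 libraries exceeded both shNC libraries, and the change stayed between 1.06 and 1.18 whichever library was left out. *Ccl7*, a monocyte chemokine next to *Ccl2*, rose 2.43-fold from 4.89 and 5.36 to 14.4 and 10.99 FPKM (log2 fold change 1.28, SE 0.17, adjusted p = 0.0756 by limma). *Cxcl5*, a neutrophil chemokine, rose 3.72-fold from 1.01 and 1.63 to 5.94 and 4.27 FPKM (log2 fold change 1.90, SE 0.30, adjusted p = 0.0945 by limma), and its call was lost without shNAT10 replicate 1, at a log2 fold change of 1.66. *Cxcl16*, a membrane-bound chemokine, went from 2.34 and 2.73 to 4.09 and 3.41 FPKM. The call of *Cxcl16* was lost whichever library was left out, at log2 fold changes between 0.42 and 0.67, and 18.3% of its exon bases are shared with *Zmynd15* on the opposite strand.

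The 3 CSF ligands were called higher, beside 8.41% of all genes tested, while *Il34*, which also binds *Csf1r*, was at a mean of 2.08 FPKM in shNC and 2.17 FPKM in shNAT10 and was not called. *Csf1*, the macrophage factor, went from 3.30 and 2.82 to 4.21 and 4.20 FPKM. *Csf2* (GM-CSF) went from 2.13 and 2.32 to 3.29 and 3.83 FPKM, on 122 fragments, and *Csf3*, the granulocyte factor, from 3.74 and 1.85 to 4.85 and 5.35 FPKM. The groups did not overlap in these genes, but no CSF ligand kept its call with each library left out. By limma-voom the call of *Csf2* was also lost. Without shNC replicate 2 the log2 fold change of *Csf3* fell from 0.93 to 0.44 and that of *Csf1* from 0.45 to 0.34. Without shNC replicate 1 the *Csf3* change was 1.42. The call was also lost without shNAT10 replicate 1 or 2 for *Csf1* (0.45 in both fits) and *Csf3* (1.00 and 0.86), and the call of *Csf2* without shNC replicate 1 (0.59) or shNAT10 replicate 2 (0.55).

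The other ligands that rose were *Tnfsf8*, *Il18* and *Il17d*. *Tnfsf8* (CD30 ligand) rose 1.86-fold from 5.66 and 5.33 to 9.90 and 10.7 FPKM (log2 fold change 0.89, SE 0.11, adjusted p = 0.0698 by limma) and kept its call with each library left out. Its receptor *Tnfrsf8* was at 0.591 and 1.02 FPKM in shNC, against 0.345 and 0.434 in shNAT10, which did not pass. *Il18*, a cytokine of the interleukin 1 family, went from 1.32 and 0.899 to 2.09 and 2.28 FPKM on 90 fragments. *Il17d* went from 0.668 and 0.926 to 1.81 and 1.23 FPKM on 77 fragments. The *Il18* call was lost without shNAT10 replicate 1 (1.00) or 2 (0.88), and the *Il17d* call whichever library was left out (0.58 to 1.11).

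The ligands that fell included *Il4*, *Il13* and *Il6*. *Il4* fell 1.73-fold from 19.1 and 21.2 to 12.5 and 10.8 FPKM (log2 fold change -0.79, SE 0.12, adjusted p = 0.0912 by limma). *Il13*, which shares a receptor chain with *Il4*, fell 2.39-fold from 3.96 and 3.36 to 1.32 and 1.62 FPKM (log2 fold change -1.26, SE 0.19, adjusted p = 0.0896 by limma). Both genes were lower in each shNAT10 library than in either shNC library, and both kept their calls with each library left out. *Il6* fell 1.81-fold from 25.7 and 27.3 to 15.2 and 14.1 FPKM (log2 fold change -0.85, SE 0.09, adjusted p = 0.0603 by limma) and ranged from -0.91 to -0.80 whichever library was left out.

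Other falls varied with single libraries or lost their calls without them. With 1 library left in a group, a call can be lost though the fold change hardly moves, as for *Il33* without either shNAT10 library. *Il33*, an alarmin of the interleukin 1 family, was at 6.22 and 12.1 FPKM in shNC, against 4.58 and 4.34 in shNAT10. *Ccl5*, a T cell chemokine, was at 5.06 and 11.1 FPKM in shNC, against 3.24 and 3.74 in shNAT10. The shNC-2 library was the high one for both genes, and without it their log2 fold changes went from -0.95 to -0.47 and from -1.08 to -0.53. Without shNC replicate 1 they were -1.42 and -1.64. The call was also lost without shNAT10 replicate 1 or 2 for *Il33* (-0.99 and -0.91) and *Ccl5* (-0.98 and -1.18), while without shNC replicate 2 only the call of *Ccl5* was lost. *Ccl17*, which attracts type 2 T cells, was at 3.98 and 3.44 FPKM in shNC, against 0.620 and 1.78 in shNAT10, on 63 fragments. Its log2 fold change of -1.71 became -1.02 without shNAT10 replicate 1 and -2.40 without shNAT10 replicate 2, and its call was lost without shNC replicate 1 (-1.61) or 2 (-1.81). *Ccl8* was called on 31 fragments, and its call was lost whichever library was left out (-0.85 to -0.50).

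Promoter stretches of 4 called cytokine genes are shown because these genes moved in different directions, *Il4*, *Il13* and *Il6* lower and *Csf2* higher, and lie in loci known for inducible transcription. They were chosen after their values were seen. Each is the 250 bases before a RefSeq transcription start in GRCm38.p6, read 5′ to 3′ on the gene's strand. Capitals mark matches on either strand to GGAAA (the core bound by NFAT), TGANTCA (AP-1), AGATAA (bound by factors of the GATA family), GGGANTTTC (NF-kappaB) and, for STAT factors, TTCNNNGAA. At *Il6* the NF-kappaB match overlaps an NFAT core match. The stretches are chr11:53618666-53618915 for *Il4*, chr11:53634703-53634952 for *Il13* and chr11:54249900-54250149 for *Csf2*, all on the minus strand, and chr5:30012864-30013113 for *Il6* on the plus strand.
Il4: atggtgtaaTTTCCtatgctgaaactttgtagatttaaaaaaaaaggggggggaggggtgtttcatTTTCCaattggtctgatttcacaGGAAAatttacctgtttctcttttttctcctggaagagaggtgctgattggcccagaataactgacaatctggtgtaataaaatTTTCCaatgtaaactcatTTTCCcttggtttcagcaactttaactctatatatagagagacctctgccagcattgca
Il13: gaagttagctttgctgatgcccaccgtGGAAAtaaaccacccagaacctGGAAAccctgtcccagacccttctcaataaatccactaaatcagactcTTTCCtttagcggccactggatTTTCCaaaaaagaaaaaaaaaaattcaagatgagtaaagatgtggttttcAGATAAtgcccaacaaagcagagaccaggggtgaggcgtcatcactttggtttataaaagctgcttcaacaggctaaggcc
Csf2: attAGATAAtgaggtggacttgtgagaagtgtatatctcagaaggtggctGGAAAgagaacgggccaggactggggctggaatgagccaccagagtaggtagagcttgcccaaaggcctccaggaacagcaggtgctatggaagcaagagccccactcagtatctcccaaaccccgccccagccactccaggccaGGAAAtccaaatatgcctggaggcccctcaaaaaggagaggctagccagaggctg
Il6: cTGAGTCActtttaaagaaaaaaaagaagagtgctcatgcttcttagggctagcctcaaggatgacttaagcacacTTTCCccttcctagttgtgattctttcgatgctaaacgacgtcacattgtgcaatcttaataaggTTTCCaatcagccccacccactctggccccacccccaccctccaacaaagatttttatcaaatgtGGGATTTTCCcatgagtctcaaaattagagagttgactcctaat
The RefSeq start used for *Csf2* lies 232 bases upstream of the 5′ end of the gene in the annotation that gave the exon lengths.

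In windows of 300 bases that also take in 50 bases after the start, the NFAT core had 5 matches at *Il4*, 4 at *Il13*, 3 at *Il6* and 3 at *Csf2*, of which 1 lies after the start and is not printed. *Il6* also held 1 AP-1 match and 1 NF-kappaB match, the latter beginning 44 bases before the start, and *Il13* and *Csf2* held 1 GATA match each. The NFAT core is short and was present in 61.3% of 32817 promoter windows, the AP-1 motif in 7.81%, the NF-kappaB motif in 1.11%, the STAT motif in 8.29% and the GATA motif in 11.2%. RefSeq windows were found for 132 members, 15 of them called. The NFAT core was present in 8 of 8 called lower and 5 of 7 called higher, against 57 of the 74 tested members with a window (77.0%). The NF-kappaB motif was present in 2 called lower (*Il6* and *Cxcr2*) and 1 called higher (*Csf1*), and in 6 of the 74 tested. *Ccl2*, *Ccl7* and *Cxcl5* were not among the matched windows. A match is a description of letters and does not show binding.

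Receptors that fell included *Cxcr2*, *Ccr7* and *Ccr10*. *Cxcr2*, the receptor for *Cxcl1* and *Cxcl5*, fell 2.16-fold from 10.6 FPKM in each shNC library to 4.76 and 4.96 FPKM (log2 fold change -1.11, SE 0.10, adjusted p = 0.0489 by limma). The 2 libraries of each group were closer to each other than to the other group, and the change ranged from -1.14 to -1.08 whichever library was left out. *Ccr7*, which guides leukocytes to lymph nodes, fell 3.04-fold from 2.24 and 2.81 to 0.644 and 0.890 FPKM (log2 fold change -1.60, SE 0.25, adjusted p = 0.0933 by limma). *Ccr10*, at 0.493 and 0.537 FPKM in shNC, against 0.138 and 0.151 in shNAT10, was called on 28 fragments, and the call was lost with the replicate block, while a minimum mean of 1 FPKM leaves it untested. Of 17 chemokine receptors 6 were tested and these 3 were called, beside 16.2% of all genes tested. The other 3 were not called. Mean levels in shNC and shNAT10 were 0.615 and 1.19 FPKM for *Ccr1* and 0.285 and 0.340 FPKM for *Cxcr6*, while *Cxcr4* held 10 fragments in all and passed the filter through shNAT10 only.

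The remaining falls were *Il10ra*, *Tnfrsf26* and *Csf2ra*. *Il10ra*, the ligand-binding chain for interleukin 10, was at 2.17 and 4.02 FPKM in shNC, against 1.503 and 1.10 in shNAT10. Its log2 fold change of -1.14 became -0.71 without shNC replicate 2, which ended the call, and the call was also lost without shNAT10 replicate 1 (-1.35) or 2 (-0.93). *Tnfrsf26*, a TNF receptor of mouse, went from 4.52 and 5.52 to 3.52 and 2.94 FPKM, and its call was lost without shNC replicate 2 (-0.48) or shNAT10 replicate 1 (-0.75) or 2 (-0.50). *Csf2ra*, the specific chain of the GM-CSF receptor, went from 1.70 and 1.78 to 1.12 and 1.09 FPKM. Its log2 fold change lay between -0.64 and -0.58 with each library left out, and each of these fits lost the call.

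Of receptors, 3 rose. *Csf2rb*, the common beta chain of the GM-CSF, interleukin 3 and interleukin 5 receptors, went from 15.5 and 18.2 to 21.8 and 22.0 FPKM. The call of *Csf2rb* was lost without shNAT10 replicate 1 (0.39) or 2 (0.38), and its neighbour *Csf2rb2*, with which it shares sequence, was not called (log2 fold change 0.10, SE 0.10). *Il13ra1* went from 6.54 and 6.33 to 8.39 and 7.93 FPKM, and the call was lost without shNC replicate 2 (0.31) or shNAT10 replicate 1 (0.30) or 2 (0.38). *Il11ra1*, the interleukin 11 receptor, went from 1.92 and 2.03 to 3.17 and 3.14 FPKM (log2 fold change 0.65, SE 0.14, adjusted p = 0.153 by limma) and kept its call with each library left out. Because 99.0% of its longest transcript is near-identical to *Gm13305* or *Il11ra2*, reads of those genes could be counted with it.

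Ligands and receptors of a pair did not always move alike. *Csf2* was called higher, *Csf2ra* lower and *Csf2rb* higher. *Il13* was called lower and *Il13ra1* higher, while *Il13ra2*, the decoy receptor, was at 3.10 and 3.43 FPKM in shNC, against 2.51 and 1.43 in shNAT10 and did not pass (log2 fold change -0.75, SE 0.30). The *Il13ra2* change was called without shNAT10 replicate 1, at -1.14. *Il4* was called lower, and *Il4ra* had a log2 fold change of -0.16 (SE 0.10) that did not pass. *Cxcr2* was called lower, and *Cxcl1* had a log2 fold change of 0.26 (SE 0.08, adjusted p = 0.240 by limma), just under the fold threshold of 1.2. Without shNC replicate 2 *Cxcl1* was called, at 0.28.

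Several abundant members were not called. The log2 fold change was -0.33 (SE 0.18) for *Tnfrsf9*, -0.07 (SE 0.08) for *Il18rap*, 0.24 (SE 0.14) for *Tnfrsf12a* and 0.19 (SE 0.13) for *Ccl9*. *Tnfrsf9* was called lower without shNC replicate 1, at -0.57, and *Tnfrsf12a* and *Ccl9* were called higher without shNC replicate 2, at 0.40 and 0.32. *Tnfrsf1a*, the main TNF receptor of most cells, was at 5.95 and 4.26 FPKM in shNC, against 8.86 and 5.79 in shNAT10, and the groups overlapped. By limma-voom, *Il1rap* (voom-adjusted p = 0.0479) passed an adjusted p of 0.05 without being called on the FPKM scale.

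The members formed 33 groups on the genome with gaps of at most 250 kb, holding 96 members, 54 of them tested and 14 called, beside 16.2% of all genes tested. More than 1 call fell in 2 of these groups. On chromosome 11 from 82035571 to 82305690 (GRCm38), *Ccl2* and *Ccl7* rose and *Ccl8* was called lower, on 31 fragments and with a call lost whichever library was left out, while *Ccl12*, at 2.22 and 5.18 FPKM in shNC, against 3.12 and 2.19 in shNAT10, did not pass. The *Ccl12* log2 fold change of -0.37 turned to 0.23 without shNC replicate 2. On chromosome 11 from 53602982 to 53725106, *Il4* and *Il13* fell and *Il5* was at 0. The *Csf2* gene, on the same chromosome from 54247271 to 54249667, was called higher beside *Il3*, which was at 0. On chromosome 5 from 90759360 to 90905938, *Cxcl5* rose and *Cxcl1*, *Cxcl2* and *Cxcl3* were not called.

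Ligands and receptors of the same pathways that the name rule leaves out were taken from a list of 50 genes. Of these, 31 were tested, 4 were higher and 5 lower (29.0% called, beside 16.2% of all genes), with a median log2 fold change of 0.08. The 5 lower calls include *Lta* and *Tslp*, which passed the filter on low values through shNC only, so the filter fixed their direction and they support nothing. *Osm* (oncostatin M), an interleukin 6 family cytokine, fell 2.34-fold from 29.5 and 34.1 to 14.2 and 12.8 FPKM (log2 fold change -1.23, SE 0.12, adjusted p = 0.0503 by limma), while its receptor *Osmr* went from 1.18 and 1.24 to 1.93 and 1.73 FPKM. *Kit*, the receptor for stem cell factor and also a mast cell marker, went from 24.5 and 21.2 to 14.5 and 15.6 FPKM. *Eda2r*, a TNF receptor family member, rose 2.23-fold from 3.48 and 3.22 to 7.11 and 8.07 FPKM, and *Fas*, the death receptor, went from 1.75 and 1.82 to 3.01 and 2.57 FPKM. *Pf4*, a platelet chemokine, was called higher at 0.472 and 1.05 FPKM in shNC, against 2.76 and 2.99 in shNAT10. *Epor* was called lower at 10.2 and 11.4 FPKM in shNC, against 7.53 and 8.07 in shNAT10. *Tslp* held 19 fragments in all (0.451 and 0.595 FPKM in shNC, 0.0703 and 0.115 in shNAT10). *Lta* held 11 fragments, all in shNC, and is listed at 0 in both shNAT10 libraries. The calls of *Osm* and *Eda2r* were kept with each library left out. Of the other calls, that of *Osmr* was lost whichever library was left out (0.49 to 0.63). The *Fas* call was lost without shNC replicate 1 (0.58), shNC replicate 2 (0.64) or shNAT10 replicate 1 (0.50). The *Kit* call was lost without shNAT10 replicate 1 (-0.55). Those of *Epor* (-0.41 and -0.51), *Pf4* (1.93 and 1.82) and *Lta* (-2.03 in both fits) were lost without shNAT10 replicate 1 or 2. Without shNC replicate 2 *Lta* was not tested.

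Of 58 listed signal transducers, 57 were tested and 14 called, 6 higher and 8 lower (24.6%, beside 16.2% of all genes), with a median log2 fold change of 0.01. Of the transducers, 53 had a mean of at least 1 FPKM, and of protein-coding genes at that level 21.7% were called. In the JAK-STAT pathway, *Cish*, an inhibitor induced by STAT5, fell from 9.19 and 10.7 to 5.16 and 5.25 FPKM (log2 fold change -0.92, SE 0.12, adjusted p = 0.0807 by limma). *Stat5a* went from 4.91 and 4.98 to 3.36 and 3.34 FPKM and *Stat5b* from 9.98 and 10.02 to 7.72 and 7.83 FPKM. *Jak2*, *Socs1* and *Socs2* were also called lower, while *Socs3* and *Socs5* were called higher. The phosphatase gene *Ptpn11* and the chemokine receptor adaptor *Arrb2* were called higher. Of the TNF and interleukin 1 receptor adaptors, *Traf4* was called higher and *Traf6* and *Tollip* lower. The calls of *Cish*, *Stat5a* and *Socs5* were kept with each library left out. The other calls were lost without at least 1 library.

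Without shNAT10 replicate 1 the calls lost included those of *Stat5b* (log2 fold change -0.35), *Socs3* (0.32), *Traf4* (0.29), *Traf6* (-0.39), *Socs1* (-0.40), *Socs2* (-0.25), *Jak2* (-0.38), *Tollip* (-0.40), *Ptpn11* (0.47) and *Arrb2* (0.47). Without shNAT10 replicate 2 they included those of *Socs1* (-0.41), *Socs2* (-0.28), *Jak2* (-0.30), *Tollip* (-0.47), *Ptpn11* (0.48) and *Arrb2* (0.50). Without shNC replicate 1 *Jak2* (-0.26) and *Socs2* (-0.22) were lost. Without shNC replicate 2 *Traf4* (0.33), *Traf6* (-0.44), *Tollip* (-0.38), *Ptpn11* (0.25) and *Arrb2* (0.26) were lost.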

How the data were processed

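RNA of 2 shNC and 2 shNAT10 FGSC libraries was analysed, grouped by the titles of the sample labels. The authors deposited FPKM for 53465 genes, made with cutadapt, HISAT2 and mm10 according to the submitters' processing notes, which also name DESeq2; versions are not given in the sources used here. The labels describe mRNA isolation and the methods rRNA depletion, so the records differ on whether poly(A) RNA was selected, which would change the coverage of other RNA. The deposited comparison of the authors (fold changes and p-values) was not used. Columns left out numbered 0.

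The deposited FPKM were tested with limma 3.58.1 in R 4.3.3 (trend, two-sided, no term for the replicate number) on log2(FPKM + 0.1) for the 20116 genes whose mean reached 0.1 FPKM, which gives every gene the adjusted p named in the text. The threshold (fold over 1.2, p of at most 0.05) is that of the study's legend. Whole fragments were recovered from FPKM and GENCODE M21 exon lengths: 96.3% of values under 50 fragments lay within 0.02 of a whole number. Shared exon bases came from the annotation, and near-identical stretches from BLAST 2.17.0 (at least 95% identity over 100 bases). Python 3.11.15 and pandas 2.3.3 were used for the rest.

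Members, lists, pairs and motifs were chosen with earlier results of these data known. Named genes are the called members, the 10 ligands and 15 receptors with the highest mean, the listed pairs, *Nat10* and the called genes of the lists; others were named after their values were seen. Alternatives were pseudocounts of 1 and 0.01, other filters, 2 scalings, the replicate block, limma-voom and each library left out. Some genes of the counts are not reported here by name.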

Additional observations from a re-analysis of the deposited data

How the results depend on the processing

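The 26 called members kept their direction in every alternative that could fit them. Their groups did not overlap, so no pseudocount or left-out library could have reversed a direction, and those fits support nothing here. Of the calls, 25 were kept with a pseudocount of 1 (not *Ccl8*) and 25 with 0.01 (not *Csf3*). Without a filter 22 were kept, and with a mean of at least 1 FPKM 23 of the 25 that could be fitted. At an equal protein-coding FPKM total 24 were kept, and by limma-voom 23 (not *Ccl8*, *Csf2* or *Il17d*). Median-ratio rescaling could change nothing, since its factors on the deposited FPKM were 1. Without one library 20, 15, 12 and 12 were kept (shNC replicate 1, shNC replicate 2, shNAT10 replicate 1, shNAT10 replicate 2), and 10 were kept in all of these. Libraries with the same replicate number showed no shared deviation from their group means (correlation of deviations 0.0071). This does not show whether the cultures were paired. With the replicate block, 13 members were higher and 11 lower, and the calls of *Ccl8*, *Ccr10* and *Il17d* were lost.

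With a mean of at least 1 FPKM the members' median log2 fold change was -0.0072 and 3 related genes were called lower. By limma-voom, 6 receptors were called higher and 11 lower. A minimum mean of 0.1 or 5 FPKM gave 104 or 22 expressed members, 48 or 9 ligands and 53 or 13 receptors. Over the fits without one library, members called numbered 6 to 13 higher and 9 to 18 lower, with medians of -0.061 to 0.0027. Ligands numbered 4 to 8 higher, receptors 1 to 6 higher and 4 to 11 lower, related genes 2 to 4 higher and 2 to 8 lower, and transducers 1 to 8 higher and 2 to 7 lower. *Nat10* ranged from -1.35 to -0.83 and *Ccl12* from -0.96 to 0.23. The cause of these changes was not tested. Among all genes tested, fewer were also called higher and fewer lower without shNAT10 replicate 1 or 2 than with every library. A loss of calls in those fits was therefore not particular to the listed genes. Depth limits members under 10 fragments in total, 75 of 182.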
